A study of Caenorhabditis elegans with 2 samples.

Results

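The regions described here are 567 intronic regions of strong FKH-3 signal in *Caenorhabditis elegans*. They were chosen by their signal and by where their summits lay. The authors listed 30000 regions for the pooled replicates, peaks and background together, so a place in this list is not a call of binding. From these, the 3000 of highest signal were taken. A region was kept if its summit lay inside a protein-coding gene but outside coding sequence and UTRs, outside the stretch from 500 bp upstream to 100 bp downstream of any protein-coding transcript start, and more than 100 bp from any tRNA, snoRNA or snRNA gene. These conditions on position were met by 25.2% of all 30000 pooled regions (7570 regions) and by 18.9% of the 3000 highest (567 regions). The signal that chose the regions is therefore a description and not a result. Of the 567, 176 had an authors' q-value of 0.05 or less, and 36 passed the authors' threshold for reproducibility between replicates. Both counts followed pooled rank. That threshold was passed by 14.7% of all 3000 highest regions, while their share at that q-value was not computed.

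FKH-3 binding had been measured in whole animals by ChIP-seq, which sequences the DNA that is recovered with a protein. Only 1 group was studied, in 2 biological replicates, and no conditions are compared. Both replicates were young adults of strain OP594, mixed in sex, collected 63 h after synchronisation as starved L1 larvae. The strain is unc-119(tm4063) III and carries the transgene wgIs594, which expresses FKH-3 fused at its C terminus to GFP and FLAG. Sonicated chromatin was precipitated through the GFP tag according to the labels' description, while their antibody field names fkh-3. The labels do not name the promoter of the transgene or the cells that express it, and whole animals do not show in which cells a region was bound. The matched control was not analysed here.

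Forkhead proteins are transcription factors that bind DNA through a winged-helix domain, and many recognise an A-rich, T-rich core word. Introns are removed from the transcript, but in animals they can hold enhancers, alternative promoters and whole genes for other RNAs. In *C. elegans*, first introns are often the longest of a gene and can carry regulatory elements. Genes for tRNAs carry promoter elements inside the gene, an A box and a B box, which the factors of RNA polymerase III bind. RNA polymerase III also makes RNase P RNA, the catalytic part of the enzyme that trims tRNA precursors, and the RNA of the signal recognition particle, which brings nascent secreted proteins to the membrane.

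The base sequence under the summits shows what kind of DNA these regions held. The following 30-base stretches of ce11 (WBcel235), plus strand, lie at the summits of the highest regions for which sequence is shown, in order of signal. The capital letter marks the summit base.
mdt-26 (chrII:5661809-5661838): cacgcgctttttttTacccgactgttgggc
frpr-10 (chrIV:7962278-7962307): tgttttcatgacacAtttttcgttgactcc
ceh-60 (chrX:6522869-6522898): acagagaacgaaggGtcattacgtcaatac
pqn-48 (chrII:4042570-4042599): tcaaagttttcccgAtcttgagctaaaaaa
srt-52 (chrV:53469-53498): acacgtgtttcgcaTggccgagtggttagt
lips-10 (chrII:8441693-8441722): agccagcaaggcttTtcattttttgggtat
vha-11 (chrIV:2314294-2314323): gaaaatcgattttaAgggtatttttcgtca
zip-7 (chrIV:16503805-16503834): aacaccattcttggTgaacatatcgaaaag
glrx-5 (chrIII:12372866-12372895): aatgggaaaatgtgAttttttgggattttt
klp-6 (chrIII:5031604-5031633): tcggtcgacgtagaCgacgacatacacagg

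These stretches differed in composition. The summits in *klp-6*, *mdt-26* and *srt-52* lay in sequence of 53.3 to 56.7% GC. The summit in *glrx-5* lay in T-rich sequence of 26.7% GC. None of the 10 stretches was chosen for a motif.

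Forkhead words were searched next, since FKH-3 belongs to that family. The words ended in TAAACA or TAAATA, and either G or A came before. They were searched on both strands within 100 bp of the summit, and GTAAACA was taken as the strict word. The following stretches, again ce11 plus strand, are from the members whose forkhead word lay nearest to the summit among those for which sequence is shown. Capitals mark the word or its reverse complement.
tomm-7 (chrIII:7859796-7859825): gagagagcgtaATAAATAaaaaatgcgtcc
pqn-35 (chrII:4622682-4622711): aggccccgtctTGTTTACcggagggaaaag
Y105C5A.15 (chrIV:15693529-15693558): attatttaattTGTTTATtcctgttcatga
K02F3.2 (chrIII:846032-846061): tatatttaagtTATTTATttttttcagcca
F48E3.9 (chrX:7481499-7481528): tttataggtatTGTTTATttggtagtttaa
hex-1 (chrX:2223607-2223636): acattgccagtTGTTTATtgcaggtctggc

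The middle bases of these 6 words lay 3 to 14 bp from their summits. Only the one in *pqn-35* holds GTAAACA, read on the minus strand. The regions in *Y105C5A.15* and *F48E3.9* ranked 396 and 605 in the pooled list, and the other 4 ranked 2242 to 2735. *tomm-7* encodes a small subunit of the mitochondrial import pore and *hex-1* a hexosaminidase.

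A forkhead word was present near 74 of the 567 summits (13.1%, exact 95% interval 10.4 to 16.1%). The same words were present at 14.9% (14.1 to 15.8%) of the 7003 pooled regions beyond rank 3000 that met the same conditions on position, hereafter the weaker intronic regions. They were present at 17.8% (17.6 to 18.02%) of 152259 intronic positions, spaced evenly through all sequence that met the conditions. The share at strong summits was the lowest of the 3, but its interval overlapped that of weaker regions. The members were also more GC-rich, and the words are A-rich and T-rich. Where the sequence within 100 bp of the summit had 35 to 45% GC, the word was found at 42 of 247 members (12.5 to 22.3%), 14.5% of weaker regions and 13.2% of positions. At 45% GC or more it was 7.69%, 7.72% and 6.67%. Below 35% GC it was found at 12 of 60 members, 22.99% of weaker regions and 21.7% of positions. The intervals of members overlapped those of the weaker regions in each of these 3 classes. The word GTAAACA alone was found at 15 members (2.65%, 1.49 to 4.33%), 2.13% of weaker regions and 2.11% of positions. These intervals cover counting error of regions only, and regions are not replicates.

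Composition separated the groups more clearly than the forkhead words did. The median GC content within 100 bp of the summit was 44.3% at members (distribution-free 95% interval 43.3 to 45.3%), 39.8% at weaker regions and 33.3% at intronic positions. Windows of 45% GC or more made up 45.9% of members (41.7 to 50.1%), 23.3% of weaker regions and 6.22% of positions. GC-rich DNA is recovered and amplified differently from AT-rich DNA in many sequencing libraries, and its part in the signal was not tested. The median share of soft-masked repeat bases was 18.9% at members, 24.9% at weaker regions and 43.3% at positions. Most members were unique in the genome, since 502 (88.5%) held no 36-base word that recurred, against 84.6% of weaker regions. Such words covered most of the window at 3 members (0.529%) and at 103 weaker regions (1.47%).

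**Figure D1:**
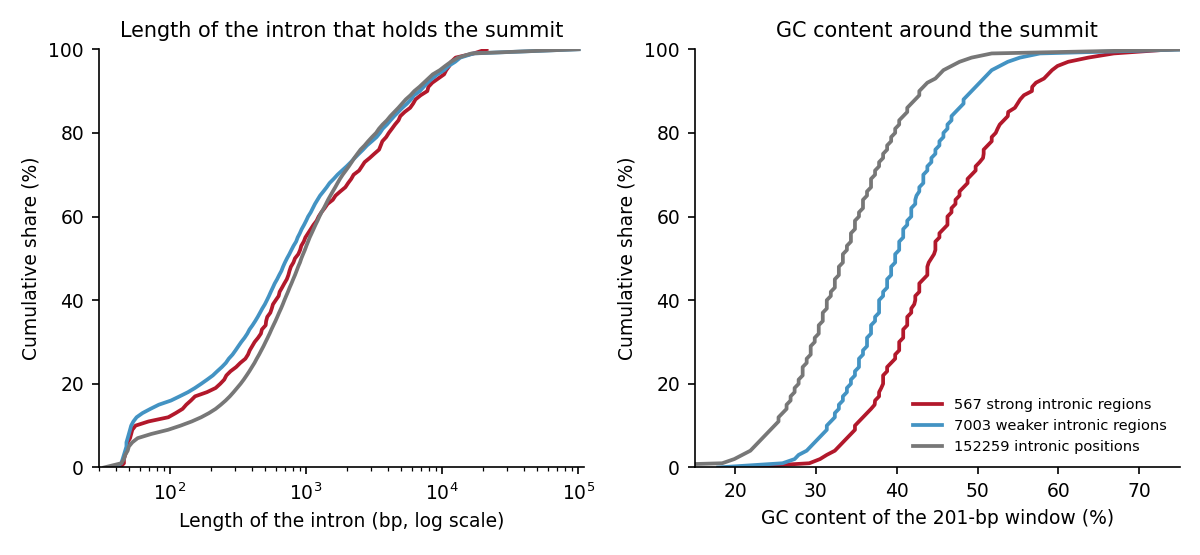
Left, cumulative share of summits against the length of the intron that holds them (bp, log scale); right, cumulative share against GC content within 100 bp of the summit (%). Red lines are the 567 strong intronic regions, blue lines the 7003 weaker ones and grey lines 152259 evenly spaced intronic positions. The upper quartiles of length are 3179, 2447.5 and 2388 bp in that order. The GC curves are ordered, with medians of 44.3, 39.8 and 33.3%.

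The words CGCGCA and ATGCGC, which hold CG steps, followed the same order. CGCGCA was found at 55 members (9.70%, 7.39 to 12.4%), 5.65% of weaker regions and 3.20% of positions. Its share went from 16.7% in the 36 members of highest rank, which are those that passed the authors' threshold for reproducibility between replicates, to 12.2% in the other members up to rank 1000, 10.8% between rank 1000 and 2000 and 5.94% between rank 2000 and 3000. ATGCGC was found at 42 members (7.41%, 5.39 to 9.88%), 4.74% of weaker regions and 2.99% of positions. Both words can overlap each other, and both are GC-rich like the members themselves.

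**Figure D2:**
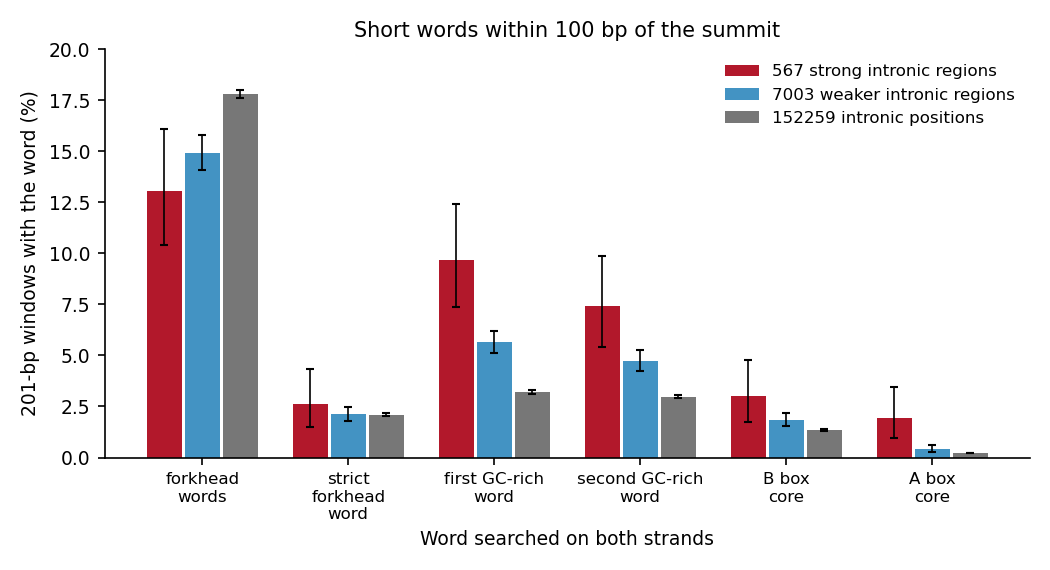
Share of windows of 100 bp on each side of the summit (%) that hold each word on either strand, for strong intronic regions (red), weaker ones (blue) and intronic positions (grey), with exact 95% intervals as bars. The strict forkhead word is GTAAACA, the first GC-rich word CGCGCA, the second ATGCGC and the B box core GGTTCGA. The forkhead words as a set are lowest at the strong regions, while the bars of each other word are highest there. The intervals of strong and weaker regions overlap for the forkhead words, the strict word and the B box core.

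Although tRNA, snoRNA and snRNA genes had been kept away by the choice of regions, traces of other small RNA genes remained. The most prominent were RNase P RNA, signal recognition particle RNA and short words of the kind found in tRNA genes. In all, 32 members (5.64%, 3.89 to 7.87%) had their summit inside another noncoding gene, against 220 weaker regions (3.14%, 2.75 to 3.58%). For 24 of the 32 that gene was of the type ncRNA, for 4 a pseudogene, for 2 a lincRNA, for 2 an antisense RNA and for 1 a miRNA. A summit can lie in more than 1 such gene.

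The highest member of all, at rank 8 of the pooled list, lay in intron 5 of 9 of *ints-8*, a gene for a subunit of the Integrator complex, which processes snRNA transcripts. The region covers chrI:13463869-13464075. Its summit fell at base 27 of *rpr-1*, the gene for RNase P RNA, which is 253 bp long and lies on the strand opposite to *ints-8*. The signal was 129.5 in replicate 1 and 284.5 in replicate 2, at rank 8 and rank 6 of their lists. Both replicates therefore placed it near the top.

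Of the 36 highest members, 2 had their summit in a gene for signal recognition particle RNA. In *klp-6*, which encodes a kinesin of ciliated neurons, the summit lay at base 91 of *srpr-2.2* in intron 2 of 12 (chrIII:5031423-5031812, pooled rank 163). Its signal was 65.7 in replicate 1 and 85.9 in replicate 2, at ranks 99 and 329. In *ckb-2*, a choline kinase gene, the summit lay at base 143 of *srpr-1.2* in intron 7 of 7 (chrIII:4369415-4369804, pooled rank 200). Its signal was 41.2 and 94.4, at ranks 894 and 221. Both RNA genes are 299 bp long, and the 2 members had 58.2 and 59.7% GC, above the median of all members. Recurring 36-base words covered 78.3% of the window in *klp-6* and 93.4% of that in *ckb-2*, so reads of both could have been shared with other loci, and their signals may not belong to these loci alone.

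The other nested genes of high signal are annotated as ncRNA without a named function. The summit in intron 1 of *tba-7*, an alpha-tubulin gene, lay in both *T28D6.10* (68 bp) and *T28D6.15* (186 bp) and ranked 275. The summit in intron 1 of *eat-20* lay in *H30A04.4* and in *H30A04.5* on the other strand and ranked 565. The summit in intron 11 of *lin-2*, which encodes a scaffold protein of the CASK family, lay in *F17E5.4* and ranked 673. The single miRNA gene was *mir-2214* in *B0361.11*, where the region ranked 1132 and was listed in replicate 2 only, at rank 640.

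The cores of the tRNA promoter elements were then searched within 100 bp of the summits. The B box core was GGTTCGA. The A box core was TGGC, then any 2 bases. After these it continued as AGTGG. Its search was added after the sequence at the *srt-52* summit had been seen. All 7 of the 36 highest members with either core are shown, followed by a member in *sms-3* and another in *Y113G7A.22* that held both. The sequences are from ce11, each read on the strand of its box, and capitals mark the core.
srt-52 rank 95, A box (chrV:53474-53503): tgtttcgcaTGGCCGAGTGGttagtacgta
lips-10 rank 106, A box (chrII:8441677-8441706): aagccttgcTGGCTTAGTGGctaaaagttt
tba-7 rank 275, A box (chrIII:11371454-11371483): atgcacgcgTGGCCGAGTGGcagtgtgttt
Y105C5A.15 rank 396, A box (chrIV:15693443-15693472): cgacctctgTGGCCAAGTGGgttaaggcgc
sms-3 rank 313, B box (chrIII:1600824-1600853): gagaggtcagtGGTTCGAcccatggcgctc
srz-71 rank 325, B box (chrIV:16333187-16333216): tagagacctgaGGTTCGAggcctacggcta
Y69A2AR.31 rank 398, B box (chrIV:2657435-2657464): catcactccctGGTTCGAaccccgctatgt
sms-3 rank 490, A box (chrIII:1599123-1599152): ggttgcgcgTGGCGCAGTGGctaacacttt
sms-3 rank 490, B box (chrIII:1599165-1599194): accaggtcgagGGTTCGAgtccccgggtgg
Y113G7A.22 rank 1848, A box (chrV:20135001-20135030): gtgcccgagTGGCTCAGTGGgtaagaggga
Y113G7A.22 rank 1848, B box (chrV:20135043-20135072): ggaaggtcaggGGTTCGAgcccccgcacgg

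The A box core was found at 11 members (1.94%, 0.972 to 3.44%), against 0.428% (0.289 to 0.611%) of weaker regions and 0.221% of positions. Among the 36 highest members it was found at 4 (11.1%, 3.11 to 26.1%). Without the region in *srt-52*, which had prompted the search, it was found at 10 of 566 members (1.77%, 0.850 to 3.23%) and at 3 of the 35 other highest (8.57%, 1.804 to 23.1%). The B box core was found at 17 members (2.998%, 1.76 to 4.76%), 1.84% of weaker regions (1.54 to 2.18%) and 1.33% of positions. An A box core followed within 20 to 90 bases by a B box core on the same strand is the layout of a tRNA gene. It was found at 4 members (0.705%, 0.193 to 1.796%), 0.200% of weaker regions (0.109 to 0.335%) and 0.0979% of positions. The intervals of members and weaker regions overlapped, and 0 of the 36 highest members had this layout. The member in *srt-52*, a chemoreceptor gene of the srt class, ranked 95. Its summit was the first base of the A box core, whose middle lay 5 bp away. Its signal was 58.5 in replicate 1 and 117 in replicate 2, at ranks 177 and 96.

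Some of these members lay at annotated tRNA pseudogenes, which the choice of regions did not remove. Of 209 tRNA pseudogenes in the annotation, 4 lay within 100 bp of a member summit (0.705% of members, against 0.114% of weaker regions). Their hosts were *Y69A2AR.31* (rank 518), *rgs-4* (rank 1148), *unc-104* (rank 1217) and *Y113G7A.22* (rank 1848), and all 4 summits had the B box core nearby. The pseudogenes in *rgs-4*, a regulator of G protein signalling, and in *Y113G7A.22* held the summit itself. The region in *unc-104*, a kinesin of synaptic vesicle transport, had recurring 36-base words over 65.7% of its window, so its reads could have been shared in the same way. Counting the A box core, the B box core or a tRNA pseudogene together, 24 members had at least 1 of these (4.23%, 2.73 to 6.23%). They were 7 of the 36 highest (19.4%, 8.19 to 36.02%; 6 of 35 without *srt-52*), 4 of the other 98 up to rank 1000 (4.08%) and 13 of 433 beyond rank 1000 (3.002%). The combined share was not computed for weaker regions, of which 1.84% held the B box core and 0.428% the A box core. Some of the matches beyond rank 1000 may therefore be no more than that background. A word match is no evidence that a tRNA is made there.

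A further 5 members lay more than 100 and up to 250 bp from an annotated tRNA, snoRNA or snRNA gene, just beyond the excluded distance. Their hosts were *ser-2*, *unc-31*, *Y57A10C.9*, *elf-1* and *T22F3.2*. The highest was in intron 1 of *ser-2*, a tyramine receptor gene, at rank 198, with a tRNA gene 153 bp away. Among weaker regions the share was 0.357%, against 0.882% of members (0.287 to 2.05%).

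Most of the highest members lay in none of these genes. The region in intron 2 of 7 of *mdt-26*, a gene for a subunit of the Mediator complex, which links transcription factors to RNA polymerase II, ranked 9 in the pooled list (chrII:5661646-5661995). Its signal was 125 in replicate 1 and 249 in replicate 2, at ranks 9 and 8. The intron is 386 bp long and the summit lay 42 bp from a splice site. Neither a forkhead word, a tRNA box core nor a noncoding gene was found within 100 bp of it. No other member besides the one in *ints-8* had such high ranks, since the next, in *frpr-10*, ranked 59.

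The region in *frpr-10*, which encodes a receptor of the FMRFamide peptide family, lay in an intron 1 of 12477 bp and had signals of 78.0 and 111, at ranks 45 and 121. *ceh-60*, a homeobox gene of the PBX family, followed at rank 65, with a summit in a 52-bp last intron and signals of 66.3 and 113. *pqn-48*, which encodes a protein rich in glutamine and asparagine, held rank 86. *lips-10*, a lipase-related gene, held rank 106. *vha-11*, which encodes a subunit of the vacuolar proton pump, held rank 124, with the ncRNA gene *Y38F2AL.11* 19 bp from the summit. Its region ranked 949 in replicate 1 but 89 in replicate 2. *zip-7*, a basic leucine zipper gene, held rank 129 and showed the same imbalance, at ranks 896 and 74.

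The remaining hosts among the 25 highest members were *F46F11.7* (rank 140), *glrx-5* (159), *Y45G5AM.9* (175), *epc-1* (199), *F29B9.5* (235), *F13D12.8* (272), *acer-1* (298), *miz-1* (301), *Y54G2A.11* (306), *daf-16* (309), *sms-3* (313) and *srz-71* (325), beside those already named. *glrx-5* encodes a glutaredoxin, *epc-1* an Enhancer of Polycomb homologue, *sms-3* a sphingomyelin synthase and *srz-71* a chemoreceptor. The summits in *F46F11.7*, *F29B9.5* and *acer-1* lay in introns of 48, 49 and 46 bp, so their regions of 390 bp also covered exons.

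Only 270 of the 567 members held no coding or UTR base anywhere in the region, and 277 lay wholly inside the intron. A summit is a point estimate inside a region of 390 bp, the width of 565 members, so the assignment to an intron rests on the summit. A summit within 50 bp of a splice site was found for 27.5% of members (155 of 563), 31.5% of weaker regions and 22.1% of positions. For 4 members the summit lay in a protein-coding gene but in no intron of a coding transcript, and these are left out of the values on introns.

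The introns that held a member ranged widely in size. Their median length was 831 bp (738 to 976 bp), with quartiles of 329.5 and 3179 bp and a range of 43 to 21230 bp. The median was 726 bp (697 to 760 bp) for weaker regions and 926 bp for intronic positions, where long introns count once for each position. Quartiles were 258 and 2447.5 bp for weaker regions and 419 and 2388 bp for positions. Introns under 100 bp held 71 members (12.6%) against 15.9% of weaker regions and 9.13% of positions. Introns over 5000 bp held 88 (15.6%), 14.3% and 13.2%. Within introns of 1000 bp or more, the summits spread over the length, with 73 in the 5′ part, 93 in the middle and 86 in the 3′ part of 3 equal parts.

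First introns held a larger share of the members than of either comparison group. They held 169 of 563 summits (30.02%, 26.3 to 33.99%), against 23.5% of weaker regions (22.5 to 24.5%) and 23.7% of positions (23.5 to 23.9%). The share was 33.3% in the 36 highest members, 30.2% in the others up to rank 1000, 31.3% between rank 1000 and 2000 and 27.9% between rank 2000 and 3000. It was 23.8% of regions between rank 3000 and 10000 and 23.3% beyond. Intron 2 held 14.7% of members and later introns 55.2%, against 16.3 and 60.2% of weaker regions. The order was counted in the transcript of longest coding sequence.

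**Figure D3:**
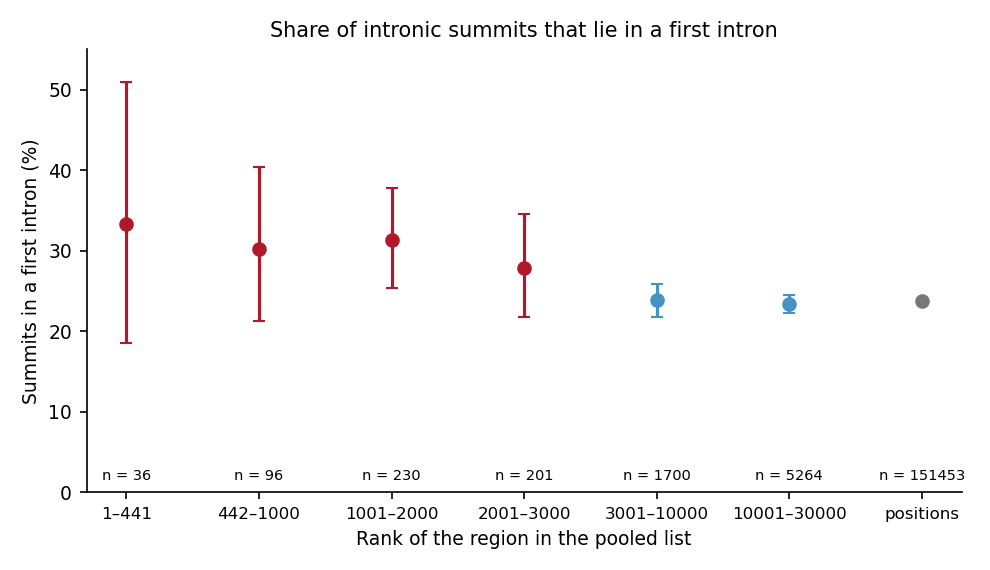
Share of summits in a first intron (%) by rank in the pooled list, with exact 95% intervals as bars and the number of summits below each point; red points are the strong intronic regions, blue points the weaker ones and the grey point evenly spaced intronic positions. The 4 red points lie between 27.9 and 33.3% and the others between 23.3 and 23.8%, and the intervals of single red points are wide.

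Nearness to transcript starts moved with this difference. Summits more than 100 and up to 500 bp downstream of a transcript start made up 20.3% of members (17.05 to 23.8%) and 15.96% of weaker regions (15.1 to 16.8%). Among summits over 1000 bp from any start, a comparison added after the values were seen, first introns held 15.8% of members (53 of 335, 12.1 to 20.2%) and 12.7% of weaker regions (11.7 to 13.7%), so these intervals overlapped. With the excluded stretch widened to 1000 bp upstream and 200 bp downstream, 24.9% of 482 members lay in a first intron. The share of weaker regions was not computed with this wider stretch, so the 24.9% cannot be set against theirs. Within windows of 45% GC or more first introns held 28.8% of members (23.3 to 34.7%), and this interval holds the shares of weaker regions (24.6%) and positions (23.7%). At 35 to 45% GC they held 28.5% of members (22.9 to 34.5%) and 22.6% of weaker regions (21.3 to 23.99%), so the intervals overlapped. Below 35% GC they held 25 of 60 members (41.7%, 29.1 to 55.1%), 24.3% of weaker regions (22.2 to 26.4%) and 24.4% of positions, and there the intervals did not overlap.

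The 563 members with an intron were spread over 502 host genes, or 2.53% of protein-coding gene names. Of these hosts 456 held 1 member, 36 held 2, and 10 held 3 or more. Members numbered 18.5 per Mb of sequence that met the conditions, and by chromosome from 15.5 per Mb on I and 15.6 on IV to 17.9 on V, 19.96 on II, 20.6 on III and 22.4 on X. The weaker regions were also fewest on I (188 per Mb) and IV (194.9) and most numerous on X (272), but III, with 216 per Mb, lay below V (251) and II (260).

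*Y48C3A.5* and *ppfr-1* held 5 members each, the most of any host. *ppfr-1* encodes a regulatory subunit of protein phosphatase 4. In *Y48C3A.5* the ranks were 356, 791, 892, 2372 and 2833, in 3 introns, and the regions of rank 356 and 791 overlapped and were matched to 1 region in replicate 2. In *ppfr-1* the ranks were 743, 845, 1423, 1885 and 2416, in introns 6 and 7. Both are long genes, with 16 and 10 further pooled regions that met the conditions on position.

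*zfp-1*, which encodes a chromatin protein of the AF10 family, held 4 members in only 6181 bases that met the conditions. Their ranks were 708, 1615, 2131 and 2888, in introns 4 and 5. The pair of rank 708 and 1615 overlapped and fell in the same replicate regions, at rank 4270 in replicate 1 and 511 in replicate 2. None of the 4 was in the top 3000 of both replicates.

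The hosts with 3 members each were *Y37D8A.6*, *ccch-1*, *cone-1*, *daf-16*, *let-526*, *lit-1* and *mbl-1*. *ccch-1* encodes a zinc-finger protein, *let-526* a subunit of the SWI/SNF chromatin remodeller, *lit-1* a Nemo-like kinase of the Wnt pathway and *mbl-1* a muscleblind splicing factor. The highest of their regions were in *daf-16* (rank 309), *ccch-1* (rank 451), *lit-1* (rank 615) and *let-526* (rank 788). The 3 in *mbl-1* ranked 2082, 2169 and 2389, and those in *cone-1* 1445, 2297 and 2491.

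**Figure D4:**
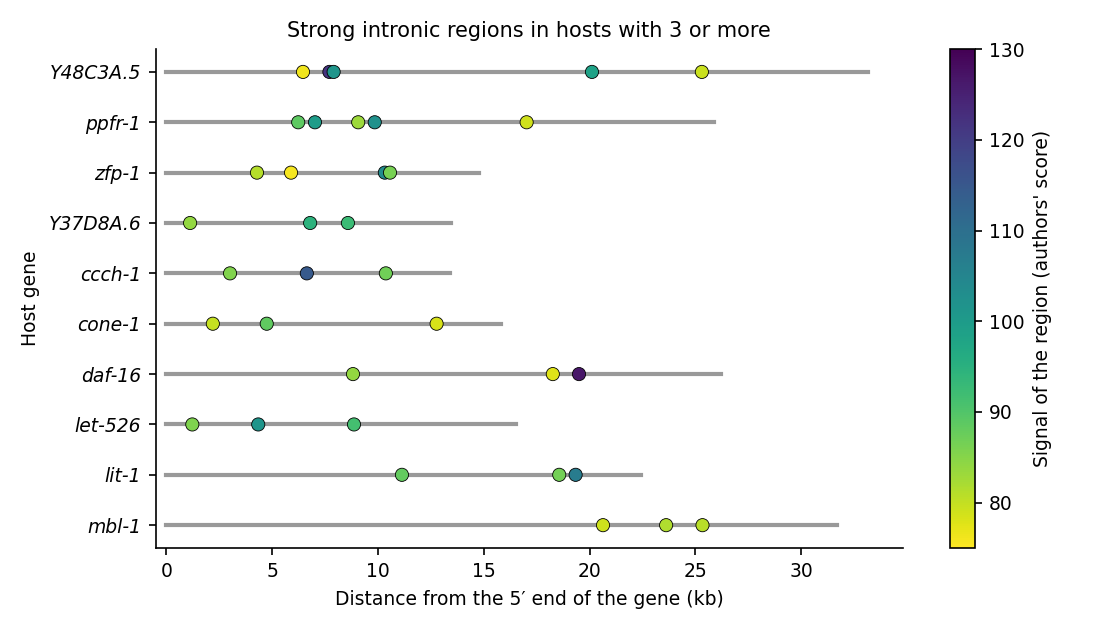
Position of member summits along the 10 host genes with 3 or more, as distance from the 5′ end of the gene (kb); grey lines span the gene and the colour of each point gives the pooled signal. The points lie in more than 1 intron in each host but *Y37D8A.6*, and in *mbl-1* all 3 lie in the 3′ part of the gene.

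*daf-16*, the FOXO forkhead factor of the insulin pathway, had summits in introns 4 and 7 of its transcript of longest coding sequence. The region of rank 309 had signals of 34.3 in replicate 1 and 75.9 in replicate 2, at ranks 2211 and 540. Its summit lay 88 bp from the ncRNA gene *R13H8.5*. The region of rank 1794 ranked 7358 and 1941. The region of rank 2603 was not listed in replicate 1 and ranked 1060 in replicate 2. All 3 thus ranked better in replicate 2, as did 351 of the 567 members. *fkh-9*, another forkhead gene, held 1 member in a 56-bp last intron, at rank 2120 and at ranks 11125 and 2575 in the replicates.

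Host genes were set against 14 gene lists, with all gene names as background, of which 11.1% of those with any pooled region meeting the conditions (502 of 4522) were hosts. Of 15 forkhead genes 2 were hosts, *daf-16* and *fkh-9*, or 33.3% of the 6 with any such region. Of 49 insulin pathway genes 3 were hosts, or 33.3% of 9. These were *daf-16*, *akt-2*, a kinase, and *ins-30*, an insulin-like peptide. Of 26 Wnt pathway genes 2 were hosts (18.2% of 11), *lit-1* and *lin-17*, a Frizzled receptor. These lists are small, and each count rests on 2 or 3 genes, with *daf-16* in 2 of the lists. The shares also take no account of how much sequence of a gene met the conditions, which was 20420 bases in *daf-16*.

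Among 273 nuclear hormone receptor genes 9 were hosts, or 11.7% of the 77 with any such region, close to the 11.1% background. The highest was in *daf-12*, a steroid hormone receptor gene, in an intron 1 of 8353 bp (rank 469, ranks 405 and 953 in the replicates). *nhr-46* (616), *nhr-88* (697) and *nhr-14* (1200) followed. Of 87 homeobox genes 3 were hosts, *ceh-60*, *vab-7* and *cog-1*, or 8.82% of the 34 with any such region.

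Host shares in the lists of neuron and muscle genes lay near the background. Of 140 ion channel and receptor genes 7 were hosts (10.9% of 64), led by the potassium channel genes *twk-22*, *unc-103*, *twk-9* and *twk-32*. Of 42 synaptic and axon guidance genes 4 were hosts (14.3% of 28). These were *unc-31*, needed for dense-core vesicle release, the kinesin gene *unc-104*, the kinase gene *unc-51* and the glutamate decarboxylase gene *unc-25*. Of 31 muscle genes 2 were hosts (13.3% of 15), the actin gene *act-4* and the twitchin gene *unc-22*.

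The lists of basement membrane (*unc-52*, perlecan), cadherins (*cdh-1*), EGF and Ras signalling (*lin-1*, an ETS factor) and TGF-beta signalling (*sma-9*) had 1 host each. None of 27 germ line genes and none of 78 cytosolic ribosomal protein genes was a host, but only 5 and 3 of them held any pooled region that met the conditions. No test of these counts was made.

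Replicates placed the members unequally. Over the members the signal in replicate 1 ranged from 15.7 through a median of 32.0 to 129.5 (522 listed), and in replicate 2 from 28.3 through 57.2 to 284.5 (559 listed). The median rank was 3063 (2695 to 3527) in replicate 1 and 1963 (1774 to 2161) in replicate 2. The rank was better in replicate 2 for 351 members and in replicate 1 for 216. Scores of different lists are not on a common scale, and the pooled list was made from both replicates, so these ranks describe how each contributed.

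In the top 3000 of replicate 1 lay 255 members (44.97%), against 49% of all 3000 highest pooled regions. In the top 3000 of replicate 2 lay 377 (66.5%), against 70.1%. Both lists placed 137 members in their top 3000 (24.2%, 20.7 to 27.9%), against 31.4% of all 3000 highest regions, and 72 members were in neither. A match needed only that a replicate region contain the pooled summit. Where the replicate summit had to lie within 50 bp of it, the share in both fell to 13.8% (78 members). By pooled rank the share in both was 94.4% in the 36 highest (34 members), 53.1% in the others up to rank 1000, 19.05% between rank 1000 and 2000 and 3.47% between rank 2000 and 3000. In replicate 1, 45 members were not listed at all (7.94%), against 6.47% of all 3000 highest regions. In replicate 2, 8 were not (1.41%), against 1%. Only 39 members were in the top 1000 of both replicates. For these 39, and for the 72 in neither top 3000, the share over all 3000 highest regions was not computed.

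**Figure D5:**
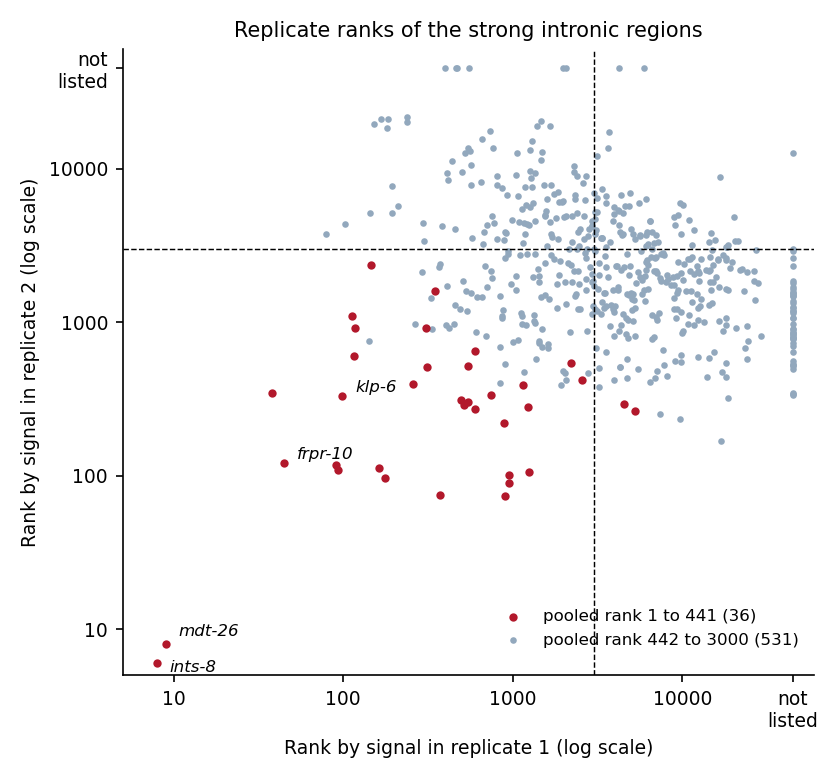
Rank by signal of each member in replicate 1 (horizontal) and replicate 2 (vertical), both on log scales, with members absent from a list drawn at its edge; dashed lines mark rank 3000. Red points are the 36 highest members and grey-blue points the others. *ints-8* and *mdt-26* stand apart at ranks 6 to 9 in both replicates, while most grey-blue points lie beyond rank 3000 in at least 1 replicate.

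The authors' threshold for the irreproducible discovery rate (IDR) is meant to keep regions found in like order in both replicates. Past it were 36 members (6.35%), against 14.7% of all 3000 highest regions. IDR regions were those of highest pooled signal, so this count only restates the members' ranks. Single members past the threshold could still differ in order, as in *vha-11* (ranks 949 and 89). Ranks of the 36 reached 5263 in replicate 1 and 2371 in replicate 2. By the authors' q-values, 176 members (31.0%) were at 0.05 or less, namely all 134 of rank 1 to 1000 and 42 of the 433 beyond rank 1000. This count too followed pooled rank, and the share over all 3000 highest regions was not computed. The pooled signal of members ran from 75.1 to 427 with a median of 86.02. At the limit of the choice the signal was continuous, with *F36D3.5* just inside (rank 2999, signal 75.12) and *C18B12.4* just outside (signal 75.10).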

How the data were processed

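FKH-3 ChIP-seq regions of 2 replicates of 1 group were read from the lists on ce11 that the authors deposited for each replicate, for the pooled replicates and past the IDR threshold. The authors gave each region a score whose scale is unknown, and this signal served to rank regions within 1 list. The authors also deposited the −log10 of a q-value and, as another value, the summit position of each region. Aligner and peak caller: not given in the sources used here. Depth and its precision are unknown, since read counts are not part of these lists. The pooled list held peaks and background together, as input for the IDR threshold. The lists on ce10 were not used here.

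Summits were placed in the gene models of Ensembl 115 on WBcel235, which is ce11, and sequence was read from the RefSeq copy of that assembly. The intron of a summit was taken from the transcript of longest coding sequence among those that hold it. A pooled summit took the best rank among the replicate regions that contained it. Shares carry exact 95% binomial intervals (Clopper-Pearson) and medians distribution-free 95% intervals, which cover counting error of regions only. No test was made, because the members were chosen by their signal and regions are not replicates. Shares were set beside 7003 weaker regions and 152259 positions spaced every 201 bp, with sequence read in 201-bp windows around each. The tools were matplotlib 3.10.9, scipy 1.17.1, pandas 2.3.3, numpy 2.4.6 and Python 3.11.15, and the procedures were checked on simulated data. Named hosts were those of the 25 highest members, those with 3 or more members, up to 4 for each gene list and those of up to 6 nested noncoding genes. Members that lay near small RNA genes, tRNA pseudogenes or tRNA boxes, *mir-2214* and *B0361.11* were named after their values were seen. The members, the gene lists and the settings were chosen with earlier results of these data known.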

Additional observations from a re-analysis of the deposited data

How the results depend on the processing

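No paired analysis was possible because there was 1 group of 2 replicates. The number of members was 134 among the 1000 highest regions, 1087 among the 5000 highest, 36 past the IDR threshold and 270 without coding or UTR bases in the region. The first-intron share moved to 24.9% with the wider promoter window and to 15.8% over 1000 bp from any start. With the wider window it was computed for members only. The median intron length was 1131.5 bp among the 1000 highest, 683.5 bp for IDR regions, 2708.5 bp where the region held no coding or UTR base, and 1226 bp over 1000 bp from any start. The share in the top 3000 of both replicates was 64.2% among the 1000 highest, 13.2% among the 5000 highest, 94.4% for IDR regions and 28.1% with 0 bp around small RNA genes. It was 19.6% and 13.8% where the replicate summit lay within 100 and 50 bp, and 1.94, 6.88 and 44.4% for the top of both lists taken as the number of IDR regions, 1000 and 5000. The forkhead share was 6.00% within 50 bp, 27.7% within 250 bp, 2.65% for GTAAACA and 17.0% at 35 to 45% GC. With either replicate's list alone, the number of members was 570 to 608, the first-intron share 28.5 to 29.2%, the median intron length 793 to 824 bp and the forkhead share 11.0 to 12.3%. In all, 47 values stayed within 1.5 times the count or within the interval, and 23 did not. The settings over 1000 bp from a start, at 35 to 45% GC and without the region in *srt-52* were added after the data had been seen. The causes were not tested.

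Depth is unknown, and it limits how firmly low ranks can be read. Of the members, 176 had a q-value of 0.05 or less, and 137 were in the top 3000 of both replicates. Input DNA and untagged animals were not analysed here, so the part of open or GC-rich chromatin in the signal was not tested. In introns shorter than a region, binding in the intron and in its exons cannot be told apart.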
